A study of Homo sapiens with 6 samples.

Results

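ATF4 is the transcription factor through which the integrated stress response alters gene expression. The genes described here are ATF4 itself and 9 genes named with it as regulators and effectors of this pathway, 10 of the 12760 genes in the expression table, and all 10 were listed and measured: the transcription factors DDIT3 (CHOP), ATF3 and CEBPB, the effectors CHAC1, TRIB3, DDIT4, SESN2 and ASNS, and PPP1R15A (GADD34). The stated rule also speaks of the eIF2alpha kinases, but none is among the names it lists, so the kinases are described as genes of the surrounding pathway. RNA came from MM.1S cells, an established line of human multiple myeloma, which is a cancer of plasma cells. LenR cells were raised by continuous lenalidomide, starting at 10 nM and increased 10-fold each month for 3 months, while WT cells were kept in the solvent DMSO over the same period. Both groups carry the same genotype label, and each has 3 libraries. The sample details call the replicates biological without saying how many independent selections stand behind them, so p-values measure the spread among these cultures, which may be partly technical. Whether lenalidomide was in the medium at harvest is not given in the sources used here, so that drug exposure and selection cannot be told apart.

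In the integrated stress response, kinases that sense amino acid shortage, heme loss, double-stranded RNA or misfolded protein in the endoplasmic reticulum phosphorylate the translation factor eIF2alpha. Bulk protein synthesis then falls, while ATF4 mRNA is translated better, so the level of ATF4 protein is set largely by translation and is not read out by its mRNA alone. ATF4 binds DNA as a dimer with other basic leucine zipper proteins, often of the C/EBP family, and raises genes of amino acid supply, of redox balance and of cell death, and PPP1R15A, which brings a phosphatase to eIF2alpha and closes the loop. Plasma cells, the cell type from which myeloma arises, secrete large amounts of antibody.

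DNA words tied to these factors were looked for in the promoter windows of the 10 genes, and the 4 windows that hold one are shown here. The RNA of these 4 genes differed between the groups, as did that of DDIT3, SESN2 and TRIB3, whose windows hold neither word. The words were TGATGNAA, the core of the C/EBP-ATF response element, and TGACGTCA, the cAMP response element bound by ATF and CREB proteins, each sought on both strands. The sequences are from RefSeq (GRCh38.p14), which holds 17 windows for the 10 genes, each from 250 bases before to 50 bases after an annotated start. Capitals mark the match, and each sequence is written 5′ to 3′ on the strand of the gene.
CHAC1: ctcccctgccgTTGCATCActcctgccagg
ASNS: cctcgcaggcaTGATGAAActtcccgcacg
ATF3: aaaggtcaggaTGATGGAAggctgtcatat
PPP1R15A: gcctctcttcgTGACGTCAgcacgccgggc
In CHAC1 (chr15:40953251-40953280, plus strand) the match begins 209 bases upstream of the start and reads TGATGCAA on the opposite strand. The ASNS match (chr7:97872458-97872487, minus strand) begins 68 bases upstream, and that of ATF3 (chr1:212565205-212565234, plus strand) 191 bases upstream. PPP1R15A holds the other word (chr19:48872352-48872381, plus strand), 58 bases upstream of its start. By GENCODE 29 the ATF3 and PPP1R15A windows lie outside every annotated transcript of their gene, whereas those of ASNS and CHAC1 overlap a UTR exon of 4 of 17 and 2 of 5 transcripts. Of the 17 windows of the 10 genes, 3 hold TGATGNAA and 1 holds TGACGTCA. Among all 35116 windows in the RefSeq table, 3.62% hold TGATGNAA and 1.85% hold TGACGTCA. The 2 words do not overlap each other in these windows. A match describes the letters and is not evidence of binding.

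Of the 10 genes, 6 rose in LenR (CHAC1, DDIT3, SESN2, ASNS, ATF3 and TRIB3), PPP1R15A fell, and ATF4, CEBPB and DDIT4 did not pass. Calls are at an adjusted p under 0.05 by limma on log2(FPKM + 1), where FPKM is the number of fragments scaled to gene length and library size. Among the 11276 genes tested, 15.1% passed in either direction, 8.57% as higher and 6.57% as lower. The median log2 fold change was 0.39 over the 10 genes and −0.002 over all genes tested. In 8 of the 10 every LenR library lay above every WT library, and in PPP1R15A every LenR library lay below. Only DDIT4 overlapped, and over all genes tested 34.5% had groups that did not overlap. All 10 genes passed the filter for low values, a mean of at least 1 FPKM.

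**Figure D1:**
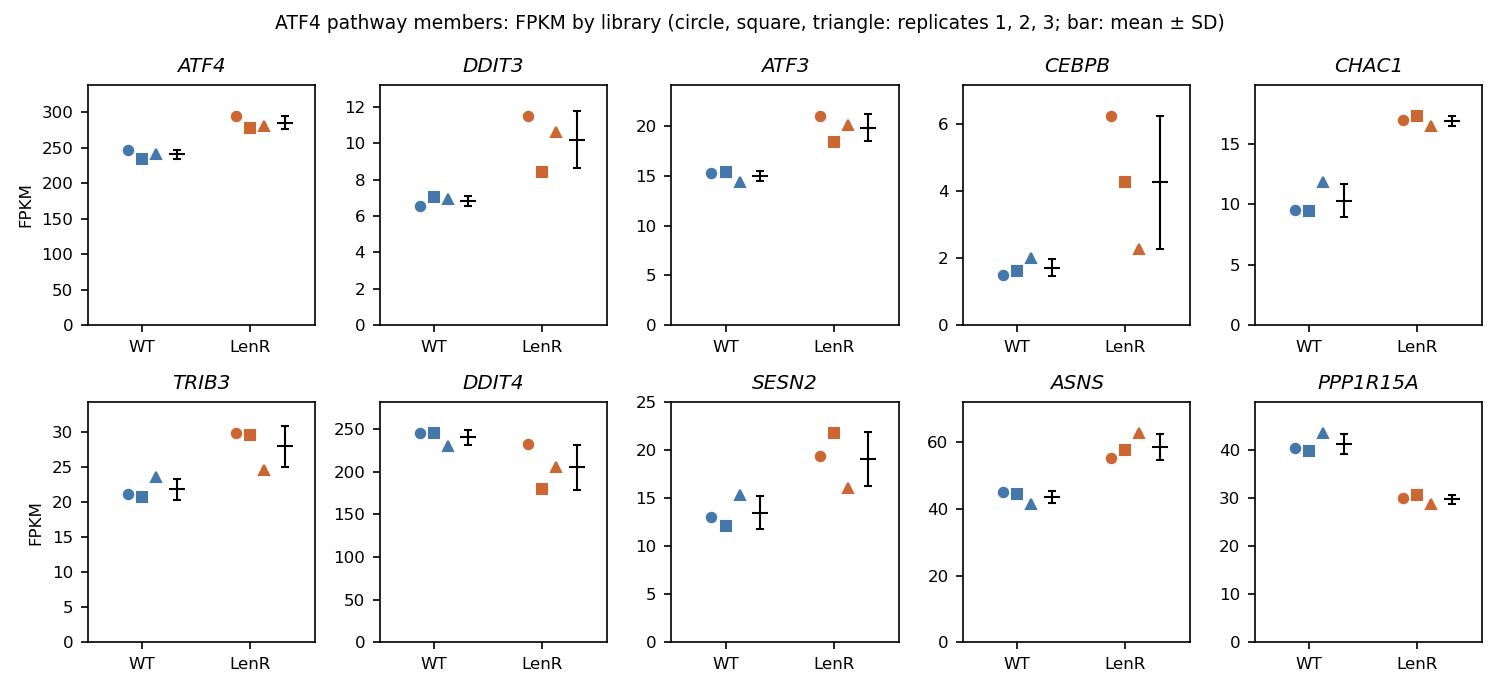
FPKM of each of the 10 genes in the 3 WT (blue) and 3 LenR (orange) libraries, each vertical axis starting at 0, with circles, squares and triangles for replicates 1, 2 and 3 and black bars for the mean ± SD. LenR points lie above WT points in 8 panels and below them in PPP1R15A; in DDIT4 the groups overlap, and in CEBPB the LenR points spread from 2.28 to 6.25 FPKM.

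Library totals worked out from the values ranged from 14500140 to 17387914 reads, with WT and LenR totals overlapping. Along the second principal component (26.8% of the variance) WT replicate 3 and LenR replicate 2 stood apart together, at −14 and −13.7, against 2.62 to 12.7 in the other libraries. The fold changes of single genes and the counts of calls were also computed without these 2 libraries. The plasma cell identity of the line was borne out by its markers: all 9 on the list were measured, with a summed level of 3918 to 4534 FPKM in WT and 4617 to 5549.6 FPKM in LenR. Of the 9, 5 rose (SDC1, IRF4, PRDM1, XBP1 and CD38), beside 8.57% of all genes tested called higher. CD38 alone held whichever single library was omitted. Of other cell types, 1 of 5 B cell markers (0.0794 to 0.637 FPKM), 2 of 5 T and NK cell markers (3.07 to 4.11 FPKM summed), 1 of 5 myeloid markers (CD68, 12.9 to 16.6 FPKM in WT and 17.3 to 19.3 FPKM in LenR) and 1 of 7 epithelial and stromal markers (COL1A1, 0.254 to 0.429 FPKM) were measured here. The part of any such cells in the results was not tested.

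ATF4, the central factor, was among the most abundant transcripts of these cells, above 98.5% of the genes tested. It lies on chromosome 22 (39519695 to 39522685, GRCh38), and its FPKM was 247, 234 and 241 in WT replicates 1 to 3 and 295, 278 and 280.1 in LenR replicates 1 to 3. Each LenR library was thus above each WT library, by a small margin. The means were 241 ± 6.58 and 285 ± 9.15 FPKM (SD, n = 3 per group), a log2 fold change of 0.24 (95% interval 0.07 to 0.41; limma, adjusted p = 0.0724), which did not pass. ATF4 passed in 3 of its 18 alternatives. These were the fit without WT replicate 3 and LenR replicate 2 (0.26, adjusted p = 0.0342 by limma), the model with a term that set these 2 libraries apart (adjusted p = 0.00863 by limma), and voom on the recovered reads (adjusted p = 0.0324). With any single library omitted it did not pass (limma, adjusted p from 0.0838 to 0.283). The largest adjusted p over the alternatives was 0.353. GENCODE 29 lists 4 pseudogenes of ATF4, and reads shared with them could have been counted either way.

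Of the factors downstream of ATF4, DDIT3 and ATF3 rose. DDIT3 encodes CHOP, a C/EBP-family protein that promotes cell death under lasting stress (chromosome 12, 57516588 to 57521737). Its level was 6.53, 7.07 and 6.91 FPKM in WT and 11.5, 8.41 and 10.6 FPKM in LenR, so that the groups did not overlap and LenR replicate 2 was the lowest of its group. The log2 fold change was 0.50 (SE 0.11; limma, adjusted p = 0.0166). Between WT replicate 3 and LenR replicate 2 the difference was 0.25, and over the remaining 4 libraries it was 0.63. The call ended without WT replicate 1 (limma, adjusted p = 0.0669) or LenR replicate 1 (0.0657), and with WT replicates 1 and 2 averaged (0.0546). DDIT3 rests on few reads, 119 to 219 per library, and in GENCODE 29 its span overlaps MARS and MBD6 on the opposite strand. Strand use in counting is not given in the sources used here, so reads from the overlap cannot be told apart. MARS had a log2 fold change of 0.21 (limma, adjusted p = 0.125) and MBD6 of 0.12 (0.767), and neither passed.

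ATF3, a stress-induced factor that mostly represses transcription (chromosome 1, 212565334 to 212620777), was measured at 15.3, 15.4 and 14.4 FPKM in WT and 21.0, 18.4 and 20.1 FPKM in LenR. The LenR values were all above the WT values, with little spread in WT. It rose by a log2 fold change of 0.38 (SE 0.071, limma adjusted p = 0.0101). The call held whichever single library was omitted (largest adjusted p = 0.0446) and ended with replicate number as a block (0.0750).

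CEBPB, a dimer partner of ATF4 and a regulator of inflammatory genes (chromosome 20, 50190734 to 50192689), was the scarcest and the most variable of the 10. It measured 1.51, 1.63 and 2.01 FPKM in WT and 6.25, 4.28 and 2.28 FPKM in LenR. LenR replicate 1 was thus several times above WT, while LenR replicate 3 was barely above WT replicate 3. The coefficient of variation was 46.5% in LenR and 15.2% in WT. The log2 fold change, 0.89 (95% interval 0.30 to 1.47), had the greatest size of the 10 and did not pass (limma, adjusted p = 0.0541). It came to 1.19 and passed without LenR replicate 3 (adjusted p = 0.00276), and to 0.62 without LenR replicate 1 (adjusted p = 0.140). With a pseudocount of 0.1 FPKM in place of 1 it was 1.16 (adjusted p = 0.0469). It also passed with all libraries scaled to the same FPKM total (0.0425) and with the term that set WT replicate 3 and LenR replicate 2 apart (0.0332), which makes 4 of its 17 alternatives. An antisense gene, CEBPB-AS1, overlaps CEBPB and was at 0.497 ± 0.0619 FPKM in WT and 0.604 ± 0.143 FPKM in LenR (SD, n = 3), below the filter for testing.

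CHAC1 had the greatest increase among the genes that passed. It encodes an enzyme that breaks down glutathione in the cytosol and is a sensitive ATF4 target (chromosome 15, 40952962 to 40956519), and its promoter window holds the TGATGCAA word printed above. Its level was 9.50, 9.47 and 11.8 FPKM in WT and 17.0, 17.3 and 16.5 FPKM in LenR. The LenR libraries lay close together and well above WT, in which replicate 3 was the highest. The mean rose 1.65-fold, from 10.3 ± 1.34 to 16.9 ± 0.399 FPKM (SD, n = 3), a log2 fold change of 0.68 (SE 0.090; limma, adjusted p = 0.00191). This call held under all 18 alternatives, at log2 fold changes from 0.63 to 0.77.

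ASNS, asparagine synthetase, makes asparagine from aspartate and glutamine and is one of the classic targets of ATF4 during amino acid shortage (chromosome 7, 97852118 to 97872542). FPKM values of 45.0, 44.5 and 41.6 in WT stood against 55.2, 57.8 and 62.8 in LenR, without overlap. The log2 fold change was 0.41 (SE 0.075, limma adjusted p = 0.00853). The call held whichever single library was omitted (largest adjusted p = 0.0392) and ended with replicate number as a block (0.0824). GENCODE 29 lists 4 pseudogenes of ASNS.

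SESN2 and TRIB3 rose too, by calls near the threshold. SESN2 encodes sestrin 2, a leucine sensor that holds mTORC1 back when leucine is scarce (chromosome 1, 28259527 to 28282491), and was at 13.1, 12.1 and 15.4 FPKM in WT and 19.4, 21.8 and 16.1 FPKM in LenR. The groups came close, WT replicate 3 lying just under LenR replicate 3. Its log2 fold change was 0.46 (SE 0.12, limma adjusted p = 0.0435). The call ended when WT replicate 1 (0.135), WT replicate 2 (0.146), LenR replicate 1 (0.150) and LenR replicate 2 (0.0927) were omitted in turn. Scaling all libraries to the same FPKM total (0.0635) and leaving out genes under a mean of 5 FPKM (0.0503) ended it too. So did replicate number as a block (0.129) and WT replicates 1 and 2 averaged (0.139). TRIB3, a pseudokinase that dampens ATF4 and CHOP activity and AKT signalling (chromosome 20, 362835 to 397559), was at 21.1, 20.7 and 23.5 FPKM in WT and 29.8, 29.5 and 24.5 FPKM in LenR. Here as well LenR replicate 3 was the one nearest to WT. The log2 fold change was 0.34 (SE 0.094; limma, adjusted p = 0.0467), and the call ended when WT replicate 1 (0.160), WT replicate 2 (0.166), LenR replicate 1 (0.163) and LenR replicate 2 (0.106) were omitted in turn. It also ended with WT replicate 3 and LenR replicate 2 both omitted (0.0593), and with libraries scaled to the same FPKM total (0.0745) or by the median ratio (0.0553), or with genes under a mean of 5 FPKM left out (0.0535). Replicate number as a block (0.172) and WT replicates 1 and 2 averaged (0.163) ended the TRIB3 call as well.

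DDIT4 (REDD1), which switches mTORC1 off through the TSC complex under hypoxia, glucocorticoids or stress, did not follow the other effectors. This gene on chromosome 10 (72273920 to 72276036) measured 245, 245 and 229.6 FPKM in WT and 232, 179.9 and 205 FPKM in LenR. LenR replicate 1 fell within the WT range, and the other LenR libraries were below it. The log2 fold change of −0.23 (95% interval −0.47 to 0.01; limma, adjusted p = 0.197) did not pass, and of its 18 alternatives 1 passed, the model that set WT replicate 3 and LenR replicate 2 apart by a term (adjusted p = 0.0326). Omitting LenR replicate 2 alone, the lowest of its group, moved the value to −0.14 (adjusted p = 0.370). An antisense gene, DDIT4-AS1, overlaps it and was not analysed here.

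PPP1R15A was the gene that fell. It encodes GADD34, the stress-induced subunit that directs protein phosphatase 1 to eIF2alpha and so ends the response (chromosome 19, 48872392 to 48876057), and its promoter window is the one with the TGACGTCA word. In WT it measured 40.3, 39.6 and 43.4 FPKM, and in LenR 30.0, 30.5 and 28.7 FPKM. The LenR values were tightly grouped and all well below WT. The mean in WT was 1.38 times that in LenR (41.1 ± 2.05 against 29.7 ± 0.929 FPKM; SD, n = 3), a log2 fold change of −0.45 (SE 0.067; limma, adjusted p = 0.00327). It passed as lower under all 18 alternatives, with values from −0.48 to −0.42.

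**Figure D2:**
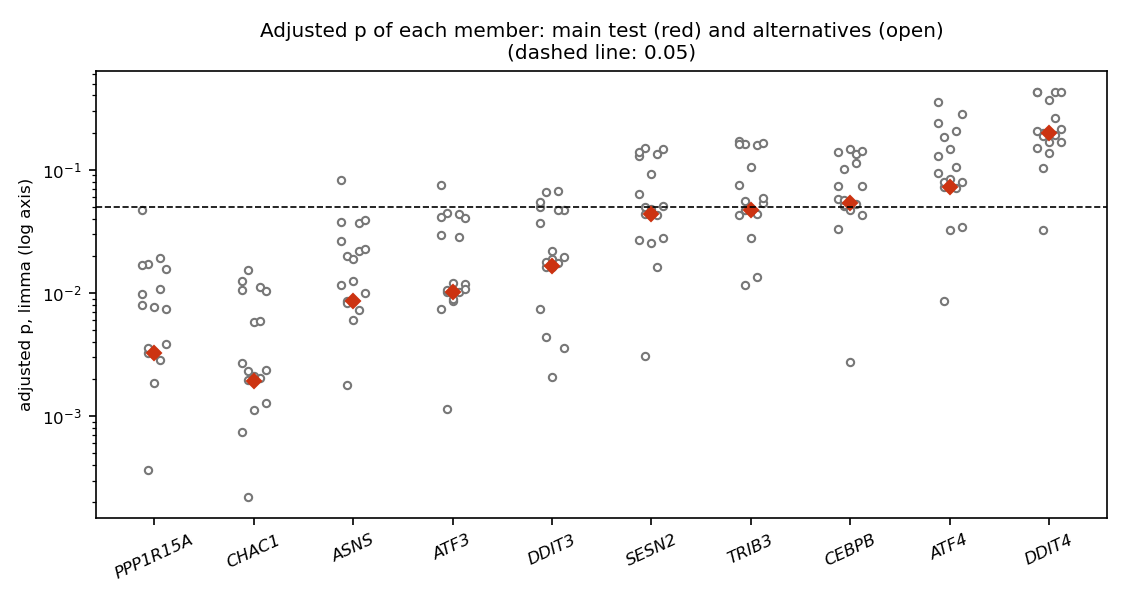
Adjusted p of each of the 10 genes on a log axis, by limma as reported (red diamonds) and under each alternative (open circles; 17 for CEBPB, which the filter at a mean of 5 FPKM removes, and 18 for the other genes), with the threshold of 0.05 dashed. All points of CHAC1 and PPP1R15A lie under the line, while those of the other 8 genes lie on both sides of it.

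Set in order of FPKM, which allows levels of different genes to be compared per length, WT cells had ATF4 and DDIT4 at the top with overlapping values (241 and 240.0 FPKM). ASNS and PPP1R15A followed, again with overlapping libraries, then TRIB3, then ATF3 and SESN2 (overlapping), CHAC1, DDIT3 and CEBPB. In LenR the leading pair had moved apart, with every ATF4 value (278 to 295 FPKM) above every DDIT4 value (179.9 to 232 FPKM). ASNS and PPP1R15A had likewise separated, and PPP1R15A now overlapped TRIB3. SESN2 (16.1 to 21.8 FPKM) overlapped both ATF3 (18.4 to 21.0 FPKM) and CHAC1 (16.5 to 17.3 FPKM), which did not overlap each other. Among the LenR libraries, replicate 1 held the highest value of 6 of the 10 genes and replicate 3 the lowest of 5.

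By the root-mean-square distance between log2 values centred on each gene's own mean over the 6 libraries, the genes closest to ATF4 among 8309 others with a mean of at least 5 FPKM were C10orf2 (0.022), ZNF513 (0.027) and a gene whose name the table gives as the date 8-Sep (0.028). Their log2 fold changes were 0.22, 0.25 and 0.24, and they passed (limma, adjusted p = 0.0478, 0.0421 and 0.0374) where ATF4 did not. The genes were picked for closeness to ATF4 over these same libraries, so the likeness in fold change follows from the choice. For CEBPB, the gene of the 10 with the greatest log2 fold change, the closest were MFSD3 (0.18), C8orf82 (0.20) and TMEM121 (0.20). TMEM121, for example, was at 15.0, 13.1 and 8.28 FPKM in LenR replicates 1 to 3 and at 4.01 to 6.62 FPKM in WT. Its LenR replicate 3 was the lowest of its group as in CEBPB, a likeness that again follows from the choice.

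Upstream of ATF4, the 4 eIF2alpha kinases did not move in 1 direction: EIF2AK4 rose, EIF2AK1 fell, and EIF2AK2 and EIF2AK3 did not pass. Over all genes tested, 8.57% were called higher and 6.57% lower. EIF2AK4 (GCN2), the sensor of uncharged tRNA, was at 20.5, 20.2 and 21.9 FPKM in WT and 25.9, 30.3 and 25.8 FPKM in LenR. All LenR libraries were above WT (log2 fold change 0.37, SE 0.082; limma, adjusted p = 0.0206), and the call ended without WT replicate 1 (0.0904) or WT replicate 2 (0.0908). GCN1, the ribosome-bound activator of GCN2, rose from 42.8 ± 2.88 to 56.9 ± 4.97 FPKM (SD, n = 3; log2 fold change 0.40; limma, adjusted p = 0.0193), a call that ended when WT replicate 1 (0.0968), WT replicate 2 (0.0805) and LenR replicate 1 (0.0688) were omitted in turn. EIF2AK1 (HRI), the heme-regulated kinase that also relays mitochondrial stress, had the greatest change of this group. Its values were 56.0, 54.8 and 57.1 FPKM in WT and 29.7, 33.1 and 31.5 FPKM in LenR. This fall to 0.562 of the WT mean (log2 fold change −0.81, SE 0.068; limma, adjusted p = 2.59e-04) held under all 18 alternatives. EIF2AK2 (PKR), the sensor of double-stranded RNA, had a log2 fold change of −0.24 (limma, adjusted p = 0.104), and EIF2AK3 (PERK), the sensor in the endoplasmic reticulum membrane, of −0.13 (0.259). Though neither passed, every LenR library lay below every WT library in both, as in 16.5% of all genes tested. For the mitochondrial relay, OMA1 (−0.08) and DELE1 (listed as KIAA0141, 0.05) did not pass, nor did the GCN2 inhibitor IMPACT (0.14).

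**Figure D3:**
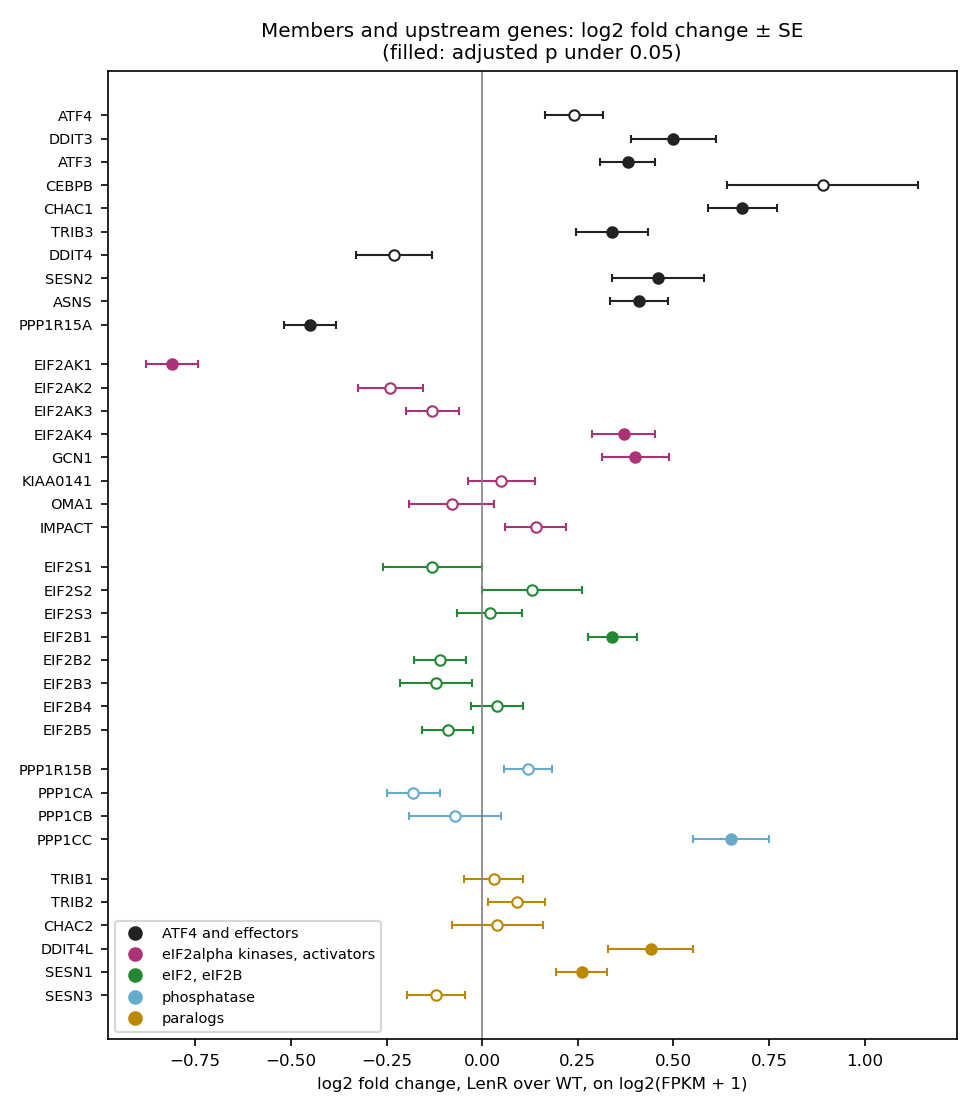
Log2 fold change of LenR over WT ± SE (limma, log2(FPKM + 1)) for the 10 genes, the eIF2alpha kinases and their activators, eIF2 and eIF2B subunits, phosphatase subunits and paralogs of the effectors, with filled points for an adjusted p under 0.05. EIF2AK1, at −0.81, lies farthest to the left, and PPP1R15A, at −0.45, is the only filled point of the 10 genes on that side.

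The chromosome neighbours of these genes differed in how they moved. For the 10 genes, the 28 to 150 other tested genes within 5 Mb had median log2 fold changes between −0.04 and 0.04. A median over so many genes cannot show a change confined to a shorter stretch. EIF2AK1 lies on chromosome 7 (6022244 to 6059230), where all 47 neighbours were below 0 and 43 were called lower, with a median of −0.72. GCN1 (chromosome 12, 120127203 to 120194710) lies among 77 neighbours with a median of 0.33, 43 of them called higher. EIF2AK4 on chromosome 15 had neighbours with a median of 0.00. Of the 25 genes called on the pathway lists, 7 had a neighbour median of at least 0.3 in size: GCN1, EIF2B1, PPP1CC and ALDH1L2 on chromosome 12, all higher, and EIF2AK1, MIOS and GARS on chromosome 7, all lower. The distance and this bound were chosen with the values known, and whether copy number differs there was not tested.

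**Figure D4:**
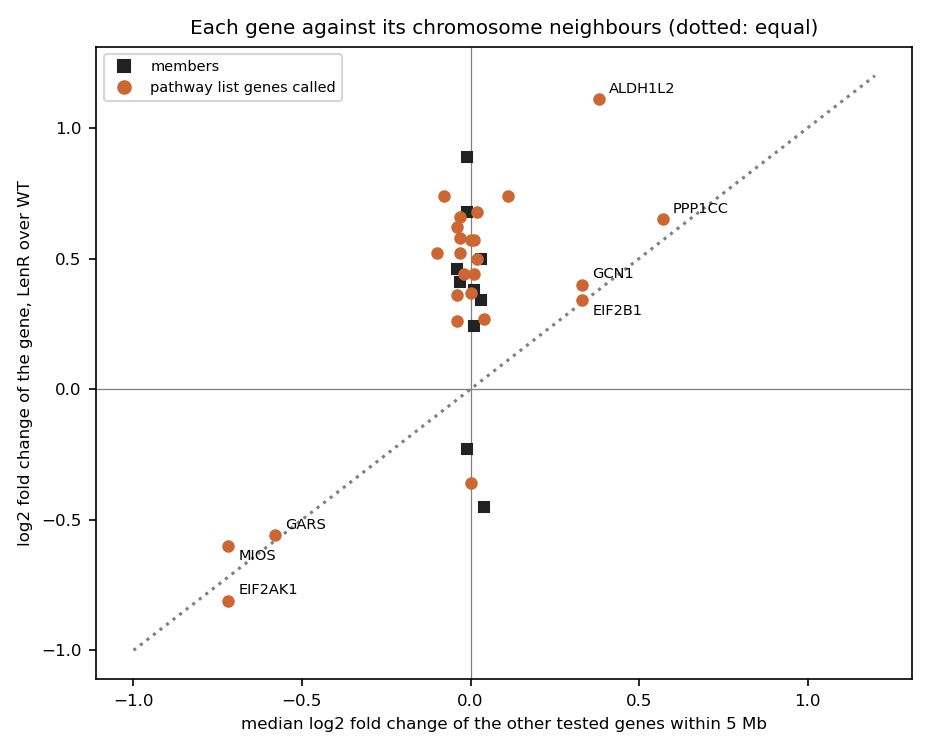
Log2 fold change of each of the 10 genes (squares) and of the 25 called pathway genes (circles) against the median of the other tested genes within 5 Mb; the dotted line marks equal values. The squares stand at neighbour medians of −0.04 to 0.04, while EIF2AK1, MIOS and GARS, and GCN1, EIF2B1 and PPP1CC, lie near the dotted line. ALDH1L2, at a neighbour median of 0.38, lies well above that line.

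The target of the kinases is eIF2, and its exchange factor is eIF2B. Of their 8 subunits EIF2B1 rose (49.6 ± 1.41 to 63.2 ± 1.55 FPKM; SD, n = 3; log2 fold change 0.34; limma, adjusted p = 0.00968) and 7 did not pass, beside 15.1% of all genes tested called in either direction. The call of EIF2B1 ended without WT replicate 1 (0.0700) or WT replicate 2 (0.0616). EIF2S1, which encodes eIF2alpha, had a log2 fold change of −0.13 (limma, adjusted p = 0.575). On the phosphatase side, PPP1R15B, the constitutive counterpart of PPP1R15A, was at 52.7 ± 1.36 and 57.5 ± 1.18 FPKM (0.12; limma, adjusted p = 0.257) and did not pass. Of the catalytic subunits of protein phosphatase 1, PPP1CC rose from 60.4 ± 5.57 to 95.3 ± 8.87 FPKM (0.65; limma, adjusted p = 0.00382), with 61 of its 68 chromosome neighbours called higher too. PPP1CA (−0.18) and PPP1CB (−0.07) did not pass. Of 12 listed partners and turnover factors of ATF4, 7 were in the expression table and 6 were tested. JDP2 was below the filter for testing, at 0.336 ± 0.0908 FPKM in WT and 0.716 ± 0.0658 FPKM in LenR (SD, n = 3). None of the 6 tested passed, by limma or by voom, and 1, the oxygen sensor EGLN1 (0.16), was at an unadjusted p under 0.05 by limma. The partners CEBPG (0.02) and ATF5 (−0.15) were among the rest.

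Among paralogs of the effectors, SESN1 and DDIT4L rose and 4 did not pass, beside 8.57% of all genes tested called higher. SESN1, a sestrin under p53 control, rose from 20.6 ± 1.01 to 24.9 ± 0.692 FPKM (SD, n = 3; log2 fold change 0.26; limma, adjusted p = 0.0322), although the call ended whichever single library was omitted (adjusted p from 0.0645 to 0.107). DDIT4L, at 1.24 ± 0.311 and 2.01 ± 0.220 FPKM, had a log2 fold change of 0.44 (limma, adjusted p = 0.0396), and its call ended when WT replicate 2 (0.0734), WT replicate 3 (0.0620), LenR replicate 1 (0.129) and LenR replicate 3 (0.0981) were omitted in turn. TRIB1 (0.03), TRIB2 (0.09), CHAC2 (0.04) and SESN3 (−0.12) did not pass. Downstream of SESN2 and DDIT4, 24 of 26 genes of mTORC1 control did not pass, while 15.1% of all genes tested were called in either direction. CASTOR1, an arginine sensor listed as GATSL3, rose from 1.99 ± 0.655 to 3.52 ± 0.285 FPKM (0.62; limma, adjusted p = 0.0245), and MIOS, a subunit of GATOR2, fell from 18.6 ± 1.63 to 11.9 ± 0.736 FPKM (−0.60; limma, adjusted p = 0.00236). The call of CASTOR1 (GATSL3) ended when WT replicate 1 (0.0849), WT replicate 2 (0.0832), LenR replicate 1 (0.0969) and LenR replicate 2 (0.0579) were omitted in turn. All 37 chromosome neighbours of MIOS were below 0, and 33 were called lower.

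Other stress effectors of ATF4 and CHOP had a median log2 fold change of 0.20, against −0.002 over all genes. Their list was chosen with earlier results of these data known. Of 23 tested, 6 rose, 1 fell and 16 did not pass. Over all genes tested, 8.57% were called higher and 6.57% lower. CBS, an enzyme of transsulfuration with a near-identical annotated copy that may share its reads, rose 1.99-fold at a low level, from 2.18 ± 0.0713 to 4.33 ± 0.812 FPKM (SD, n = 3; 0.74; limma, adjusted p = 0.00314). VEGFA, the vascular growth factor, was at 13.5, 14.5 and 17.0 FPKM in WT and 24.1, 26.9 and 22.6 FPKM in LenR (0.68; limma, adjusted p = 0.00336). EIF4EBP1, which restrains cap-dependent translation, rose from 61.7 ± 3.79 to 98.1 ± 10.4 FPKM (0.66) and the hormone gene ADM2 from 3.96 ± 0.253 to 6.46 ± 0.984 FPKM (0.58). The pro-death targets TNFRSF10B (DR5; 16.9 ± 0.838 to 24.6 ± 0.316 FPKM) and BBC3 (PUMA; 5.89 ± 0.587 to 8.76 ± 0.771 FPKM) rose as well and, with ADM2, EIF4EBP1, VEGFA and CBS, held whichever single library was omitted. BBC3 and TNFRSF10B were singled out after their values were seen. PMAIP1 (NOXA; −0.13) and BCL2L11 (BIM; −0.09) did not pass. GADD45B fell from 149 ± 14.1 to 116 ± 6.64 FPKM (−0.36; limma, adjusted p = 0.0374), a call that held when LenR replicate 2 was omitted and ended on omitting any other single library (adjusted p from 0.0791 to 0.112).

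Of 19 tested amino acid and tRNA ligase targets of ATF4, on a list likewise chosen with earlier results known, 7 rose and 1 fell (median 0.23). Over all genes tested, 8.57% were called higher and 6.57% lower. The 7 were ALDH1L2 (1.11), PSPH (0.74), PYCR1 (0.57), GPT2 (0.57), PHGDH (0.52), PSAT1 (0.44) and AARS (0.27), so 6 of them are enzymes of serine, folate, proline or alanine metabolism and 1 is a tRNA ligase. The gene that fell was the glycyl-tRNA ligase GARS (−0.56, limma adjusted p = 0.00110), whose 28 chromosome neighbours were all below 0. Of the 58 chromosome neighbours of ALDH1L2, 40 were called higher, and their median was 0.38. The call of AARS held only without WT replicate 3, and omitting any other single library ended it (adjusted p from 0.0763 to 0.209). PHGDH, PSAT1 and AARS lie outside the naming rule and were added after their values were seen. In the XBP1 and ATF6 arms of the unfolded protein response, 1 of 12 rose, XBP1 itself (483 ± 5.52 to 619 ± 15.1 FPKM; SD, n = 3; 0.36; limma, adjusted p = 0.0203), and none fell. The list median was −0.05, the chaperone HSPA5 (BiP) stood at −0.20 (limma, adjusted p = 0.120), and the call of XBP1 ended when WT replicate 1 (0.121), WT replicate 2 (0.101), WT replicate 3 (0.0509) and LenR replicate 1 (0.0674) were omitted in turn.

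**Figure D5:**
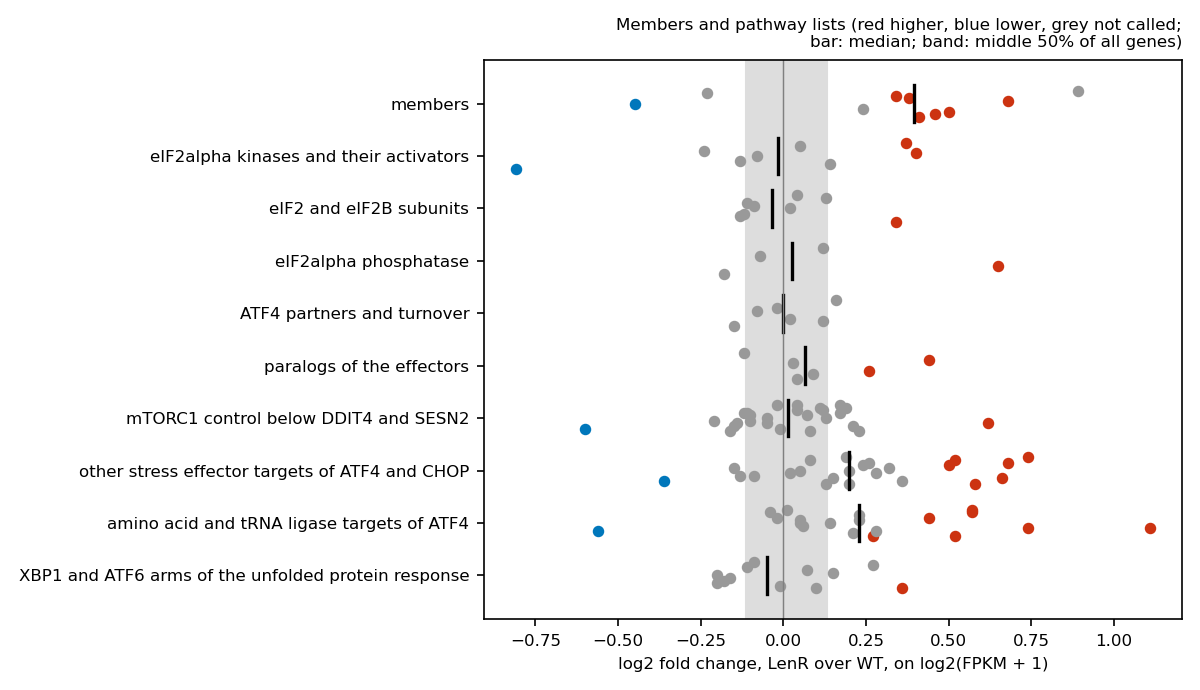
Log2 fold change of every tested gene of the 10 and of 9 pathway lists (red, called higher; blue, called lower; grey, not called), with black bars at the list medians and a band over the middle 50% of all genes tested. The bar of the 10 genes stands at 0.39, those of other stress effectors and of amino acid targets at 0.20 and 0.23, and those of the kinases and of the XBP1 and ATF6 arms at −0.02 and −0.05.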

How the data were processed

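The authors deposited 1 table of FPKM values for expressed genes, with 1 column per library, matched to samples by the column names in the descriptions. The submitters' processing notes name hg38 and the tools edgeR 3.40.2, featureCounts 2.0.3, HISAT2 2.2.1 and FastQC 0.11.9, with no role or order. For the annotation, the strand setting and the filter for expressed genes, nothing is given in the sources used here. FPKM of all 12760 genes were whole multiples of a step (within 0.001 of a read), which gave the reads behind them and the library totals. Genes averaging 1 FPKM or more (11276) were tested: log2(FPKM + 1) was fitted with limma 3.58.1 (R 4.3.3; group only, trended empirical Bayes, two-sided, Benjamini-Hochberg over all genes tested). Fold changes on this scale understate those of low genes. The test was also tried on simulated data. Intervals are 95%, from limma. Positions are from GENCODE 29 (GRCh38). The 10 genes, the lists and the alternatives were chosen with earlier results of these data known. Named genes are the 10, all tested kinases and activators, phosphatase subunits and paralogs, and up to 4 called genes per list and direction; others are named after their values were seen. Figures used Python 3.11.15 and matplotlib 3.10.9.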

Additional observations from a re-analysis of the deposited data

How the results depend on the processing

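All 10 genes kept the direction of their log2 fold change in each of the 18 alternatives run (17 for CEBPB). Of the 6 genes called higher, 3 stayed with WT replicates 1 and 2 averaged and 1, CHAC1, with the replicate block. The number called higher was 3 to 7 with 1 library left out, the 7 including CEBPB, and 4 with genes under a mean of 5 FPKM left out, which ended the calls of SESN2 and TRIB3. PPP1R15A was the 1 gene called lower in these fits, and DDIT4 joined it (2) in the model that set WT replicate 3 and LenR replicate 2 apart by a term. The labels do not say that replicate numbers pair the samples. The correlation of deviations was 0.024, −0.557 and −0.683 for numbers 1 to 3, against 0.686 for WT replicate 3 with LenR replicate 2. Deviations were taken from the mean of each group of 3, so these correlations depend on each other and cannot decide whether the numbers mark a pairing. Over all genes, 1707 were called; 907 with the replicate block, 1075 with a mean of at least 5 FPKM, 1052 with WT replicates 1 and 2 averaged, 3163 with the term, 1822 without those 2 libraries, and 1007 to 1562 with 1 library left out. Of 112 tested genes on the pathway lists, 21 were called higher and 4 lower, beside 8.57% and 6.57% of all genes tested. The 21 became 13 with the block, 13 with the average, 37 with the term and 24 without those 2 libraries. With 1 library left out they were 13 to 20, and the 4 called lower became 8 with the term. The cause of these differences was not tested, apart from the fewer genes or samples of some fits.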
